A study of Populus tremula x Populus alba with 3 samples.

Results

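The genes described here are 3 members of the flavonoid pathway or named after it, out of 318 genes listed in the authors' deposited table. They are a chalcone synthase (CHS, also TT4; Potri.001G051500), a flavonoid 3'-hydroxylase (TT7, the cytochrome P450 CYP75B1; Potri.003G066800) and a reductase whose best Arabidopsis hit carries the name DFR (Potri.T168400). They were chosen by gene ID, with their values in this comparison known, so those values are given as a description. Gene expression was measured by RNA sequencing in shoot apices of hybrid poplar, Populus tremula x Populus alba, with all plants of clone 717-1B4. The over-expressing group had 2 libraries, 1 from each of the lines CsDML OX1 and CsDML OX3, and the wild type, without the transgene, had 1 library. Both groups had spent 28 days in SD when the apices were taken. Neither abbreviation is explained in the labels. From general knowledge of the study, CsDML is taken as a DEMETER-like DNA demethylase of chestnut and SD as short days, the signal on which poplar stops growing and forms buds. The sources used here do not name the promoter of the transgene.

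Flavonoids are phenolic compounds built from phenylalanine. Chalcone synthase makes the first dedicated intermediate, chalcone isomerase and flavanone 3-hydroxylase carry it on, and flavonoid 3'-hydroxylase adds a hydroxyl group to the B ring. Dihydroflavonol 4-reductase then opens the branch to anthocyanins and to proanthocyanidins, the condensed tannins that are abundant in poplar. In poplar, flavonoids and related phenolics accumulate in leaves, bark and buds.

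All 3 genes were listed with higher expression in the CsDML over-expressors, and 2 of them, TT7 and the DFR-named gene, rose at an adjusted p under 0.05 in the authors' deposited table. CHS, at the entry of the pathway, did not pass, with a log2 fold change of 1.11 and an adjusted p of 0.0612 (authors' deposited table). Of the 41335 genes tested, 0.104% were higher and 0.387% lower at an adjusted p under 0.05, and 0.191% were higher and 0.578% lower at one under 0.1. Since the 3 genes were chosen from this contrast, nothing is read from their count against these shares. The authors' deposited table holds 1 value per gene for the whole comparison, so neither the level in each library nor the spread between the over-expressing lines is known here. With 1 wild-type library, the p-values hold no measure of the variation among wild-type apices. In whole apices, more cells of a type and more RNA per cell cannot be told apart.

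**Figure D1:**
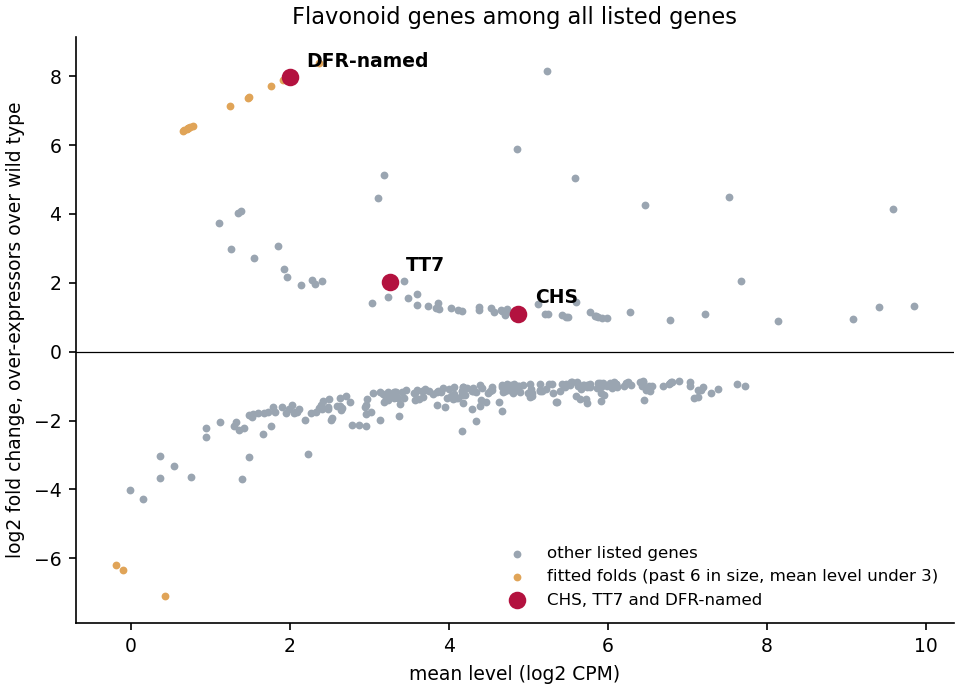
The log2 fold change of each of the 318 listed genes, over-expressors over wild type, is plotted against its mean level in log2 CPM. CHS (1.11) and TT7 (2.03) lie among the higher genes with measured folds, while the DFR-named gene (7.97) lies on a line of 14 genes whose fold follows their level.

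CHS condenses coumaroyl-CoA with malonyl-CoA and thereby commits carbon to flavonoids. In the authors' deposited table its mean level was 4.87 on the log2 CPM scale (CPM, reads relative to the total of their library), or 29.3 CPM. This level and the fold correspond to 35.7 CPM in the over-expressors and 16.6 CPM in wild type, worked out with weights of 2 and 1 for the number of libraries. CPM is not corrected for gene length, so such levels are compared between groups and not between genes. The fold was thus 2.15, the smallest of the 3 genes in the authors' deposited table. The unadjusted p of 0.000356 in the authors' deposited table implies a standard error of about 0.31 on the log2 scale and a 95% interval of 0.50 to 1.71 for the log2 fold change. This implied error restates the deposited p, so the fold set against it adds no support. It rests on the variance of the authors' fit and not on wild-type replicates. CHS missed the threshold once all genes tested were adjusted for.

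How near CHS lay to the limit of the listing can be read from its neighbours in level. Within 0.5 of its mean level on the log2 CPM scale the authors' deposited table holds 15 higher and 45 lower genes. CHS was 12th of the 15 by fold, and the smallest log2 fold change among these 15 was 1.07 in the authors' deposited table. No gene with a smaller rise was listed in that range, which holds for any other copy of CHS too. A slightly smaller log2 fold change than that of CHS, 1.105, passed the threshold at a higher mean level of 5.21 (Potri.009G103800, an alpha/beta-hydrolase family gene, adjusted p 0.0489 in the authors' deposited table). This was the last higher gene inside the threshold. The first outside it were genes without a best-hit name, with adjusted p of 0.0506 and 0.0510 (Potri.T170700 at 1.26 and Potri.002G034500 at 1.15 on the log2 scale, authors' deposited table).

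TT7 is the cytochrome P450 that turns kaempferol-type into quercetin-type flavonoids and cyanidin precursors. In the authors' deposited table it rose 4.07-fold, which is 2.03 on the log2 scale, at an adjusted p of 0.00195. Its mean level there was 3.26 on the log2 CPM scale, which with the fold corresponds to 12.8 CPM in the over-expressors and 3.13 CPM in wild type. The unadjusted p of 2.88e-06 in the authors' deposited table implies a standard error of about 0.43 and a 95% interval of 1.18 to 2.87 on the log2 scale. TT7 was steeper than CHS by 0.92 on the log2 scale, but their implied intervals overlap and the difference itself was not tested.

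At its level TT7 was well inside the listing. Within 0.5 of its mean level on the log2 CPM scale the authors' deposited table holds 10 higher and 41 lower genes, and TT7 was 4th of the 10 by fold. The smallest log2 fold change among the 10 was 1.31, and the smallest that passed the threshold was 1.56, per the authors' deposited table. It was the single gene described as a cytochrome P450, a family with many members in plants that each act on other substrates.

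**Figure D2:**
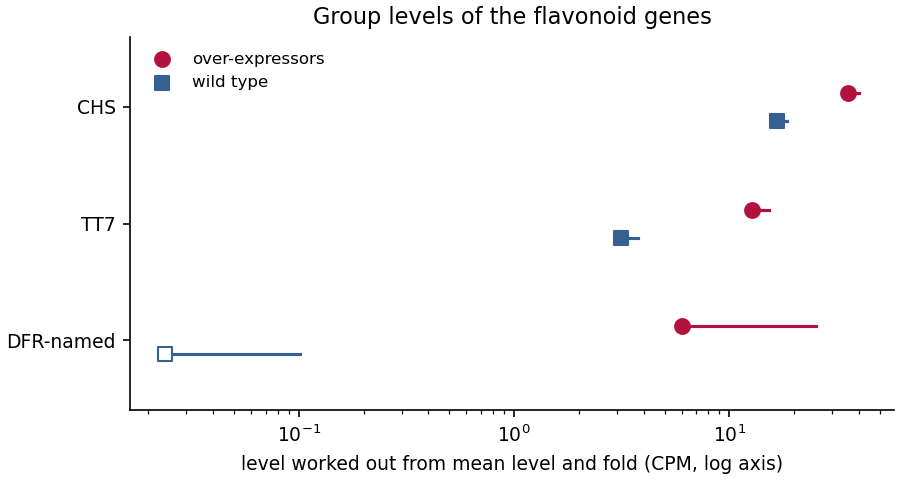
Levels in CPM (log axis), computed from fold and mean level, are shown for the over-expressors (circles) and wild type (squares), and each line runs to the values under other readings of the mean level. Each reading keeps the deposited fold of CHS (35.7 and 16.6 CPM) and TT7 (12.8 and 3.13 CPM), so only the levels can move and not the direction. No spread over libraries is known to set these levels against. The open square of the DFR-named gene marks a wild-type value that is fitted.

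The DFR-named gene had, in the authors' deposited table, a fitted log2 fold change of 7.97 and an adjusted p of 5.48e-06. Its mean level there was 2.003 in log2 CPM. Its p was the 16th smallest of the 318. The level worked out in the over-expressors was between 6.0 and 25.3 CPM, depending on how the mean level is read, and in wild type it was at or near 0. The fold is no measured ratio. A log2 fold change above 6 beside a mean level under 3 in log2 CPM is listed for 14 higher genes of the authors' deposited table, and their order by fold is exactly their order by level. The DFR-named gene is 2nd in both orders. The ratio of mean level to fold was almost constant over the 14, at 0.0155 to 0.0186 CPM per unit of fold, and was 0.0160 CPM for the DFR-named gene, worked out from the authors' deposited table. Reads in the over-expressing libraries against almost none in wild type are what these values describe, and they do not say whether both lines carried the reads.

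The best hit of the DFR-named gene goes against its place in the pathway. It is AT2G45400, described in the authors' deposited table as dihydroflavonol 4-reductase, whereas the Arabidopsis enzyme of anthocyanin synthesis is AT5G42800, which is the best hit of no listed gene. In Arabidopsis, AT2G45400 is known as BEN1, a DFR-like reductase that affects the level of brassinosteroids, the steroid growth hormones. Because of this best hit, the gene is called DFR-named here. Of 15 Arabidopsis genes of brassinosteroid synthesis, inactivation and signalling, AT2G45400 was the single one with a listed poplar homologue, and the other 14 had none. Most genes tested have no row, so nothing is read from this count. None of the 3 genes shared its best hit with another listed gene. The sources used here do not say how reads of near-identical copies were assigned.

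Most other steps of the pathway had no listed gene. Of 18 Arabidopsis genes for flavonoid synthesis, decoration and transport, 2 (those of CHS and TT7) had a listed poplar homologue and 16 had none. These 16 include the enzymes between CHS and TT7, chalcone isomerase (AT3G55120) and flavanone 3-hydroxylase (AT3G51240), as well as flavonol synthase (AT5G08640), anthocyanidin synthase (AT4G22880) and anthocyanidin reductase (AT1G61720). None of 17 regulators of the pathway had a listed homologue, among them the MYB factor TT2 and its bHLH partner TT8, which switch on tannin genes in seeds of Arabidopsis. None of 16 genes at the entry of phenylpropanoid and lignin synthesis, such as phenylalanine ammonia-lyase and cinnamate 4-hydroxylase, had one either. CHS was the single listed gene described as a chalcone, stilbene or polyketide synthase, and no listed gene was described as an oxygenase that uses 2-oxoglutarate, the family of flavanone 3-hydroxylase and anthocyanidin synthase. Of the 41335 genes tested, 318 have a row, 0.191% higher and 0.578% lower. Lists of this size are thus mostly without rows whatever they hold, and CHS and TT7 were chosen beforehand, so nothing is read from these counts. A gene without a row had an adjusted p of 0.1 or more or was not tested, so the absence of a row does not show that its expression was unaltered. With the DFR-named gene taken in by its name, the listed genes of the flavonoid list are the 3 described here. They were chosen with their values known, so nothing is read from their shared direction. Over all 318 genes, 79 were higher and 239 lower, and the median log2 fold change was -1.09, in the authors' deposited table.

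Families that act on phenolic products showed 1 further rise. UGT84A1, described in the authors' deposited table as a quercetin 3-O-glucosyltransferase, rose 2.27-fold, a log2 fold change of 1.18 with an adjusted p of 0.0456 (Potri.009G095300). In Arabidopsis UGT84A1 is best known for adding glucose to hydroxycinnamic acids such as sinapate, so its description does not settle its substrate. It was the single listed gene taken in as a glycosyltransferase, and its levels worked out to 31.2 CPM in the over-expressors and 13.8 CPM in wild type. The interval implied by its p was 0.56 to 1.80 on the log2 scale. Its ID lies on chromosome 9, where 15 of 21 listed genes (71.4%) were higher in the authors' deposited table. Over all chromosomes 79 of 318 listed genes were higher. The part of the chromosome in the value of UGT84A1 was not tested. An O-methyltransferase family gene, chosen after its value was seen, had a log2 fold change of 1.07 and an adjusted p of 0.0982 (Potri.013G122900, authors' deposited table). Enzymes of this family add methyl groups to phenolics and other compounds.

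The transporters named below, and the genes other than the DFR-named gene that are described as reductase or NAD(P)-binding, were listed lower. So were most listed genes, 239 of 318. The wording of the descriptions took in 3 transporters, and none of these 3 passed an adjusted p of 0.05. MRP3 and MRP14 are of a family with members that carry flavonoids or their conjugates into the vacuole among many other compounds. The third is described only as an ABC transporter family protein. MRP3 had a log2 fold change of -1.18, MRP14 one of -1.02 and an ABC transporter family gene one of -0.96, with adjusted p of 0.0647, 0.0787 and 0.0820 in the authors' deposited table. The wording missed 2 other ABC transporters, which are named after their values were seen and which fell. They are PGP2, by 1.40 on the log2 scale (Potri.001G139600, adjusted p 0.00602), and the abscisic acid transporter ABCG40, by 1.75 (Potri.018G032900, adjusted p 0.0288), per the authors' deposited table. A myb family factor that is no member of the regulator list had -1.01 with an adjusted p of 0.0523 (Potri.015G095000, authors' deposited table). MYB3R1, a MYB factor of the cell cycle outside that list too and likewise chosen with its value known, fell by 1.21 on the log2 scale (Potri.006G241700, adjusted p 0.0407, authors' deposited table). The words reductase and NAD(P)-binding took in 3 genes. The DFR-named gene rose, and a Rossmann-fold gene, of the fold that DFR enzymes share, fell by 1.07 on the log2 scale (Potri.001G327800, adjusted p 0.0286, authors' deposited table). The remaining one, RNR1, a ribonucleotide reductase of DNA synthesis with no role in flavonoids, had -0.999 and an adjusted p of 0.0595 (authors' deposited table).

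**Figure D3:**
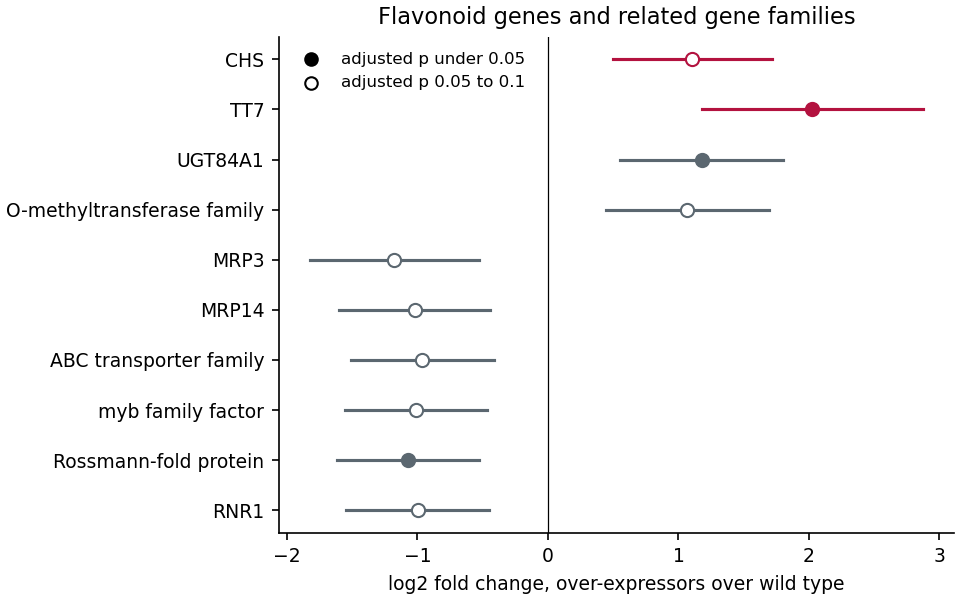
Points give the log2 fold change, over-expressors over wild type, of CHS, TT7 and listed genes of related families, and lines give the 95% interval implied by the deposited p (filled, adjusted p under 0.05). CHS (1.11), TT7 (2.03), UGT84A1 (1.18) and the O-methyltransferase gene (1.07) are higher, and the 3 transporters drawn, the myb family factor, the Rossmann-fold gene and RNR1 are lower. The DFR-named gene has no interval and is not drawn.

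The IDs of CHS and TT7 lie among genes that were mostly lower, as were 239 of all 318 listed genes. TT7 was the single higher gene of 13 listed on chromosome 3 (7.69%), and CHS was 1 of 4 higher genes of 37 on chromosome 1 (10.8%), in the authors' deposited table. The listed gene nearest to TT7 by ID number, Potri.003G058600, fell by 1.18 on the log2 scale (adjusted p 0.0286), and a pectin lyase-like gene on its other side fell by 2.12 (adjusted p 3.39e-05), per the authors' deposited table. The listed genes nearest to CHS were also lower, DOT2 at -0.93 (adjusted p 0.0456) and a histone gene at -0.98 (adjusted p 0.0666), per the authors' deposited table. The DFR-named gene lies on unplaced sequence, where 5 of 8 listed genes were higher and where ID numbers need not follow position. The listed genes nearest to TT7 differ from it by 8200 and 10100 in ID number. For CHS the differences were 30600 and 34600. They are thus no close neighbours, and any genes in between have no row. Whether a run of higher genes lies around CHS or TT7 was not tested.

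The listed genes most like each of the 3, among those with a best-hit name, were found by the distance in log2 fold change and mean level within this single contrast. For CHS they were UGT84A1 (distance 0.222) and 2 genes of photosystem I proteins, PSAO (0.378) and LHCA3 (0.795). For TT7 they were GIP1 (distance 0.762), a protein that binds a tubulin complex component, the lipid transfer protein LTP1 (0.859) and the lipase GLIP4 (0.973). For the DFR-named gene they were expansin A23 (distance 0.536) and the cellulose synthase-like gene CSLG3 (0.764), both with fitted folds, and at a far greater distance of 4.003 a cytochrome b5, CB5-E, of a family that passes electrons to P450 enzymes. CB5-E rose by 4.02 on the log2 scale (authors' deposited table, adjusted p 0.0160).

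Markers of tissues that an apex sample can hold were almost all without a row. In the authors' deposited table, of 4 leaf markers LHCA3 was listed and rose by 1.43 on the log2 scale (adjusted p 0.00135), and of 5 xylem markers XCP1 was listed and fell by 1.75 (adjusted p 0.0489). None of 4 epidermis, 3 phloem or 4 shoot meristem markers, the last including STM and WUS, had a row, and levels of genes without a row are not known here, so the labelled tissue could not be checked. The part of tissue make-up in the values of CHS, TT7 and the DFR-named gene was not tested.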

How the data were processed

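Libraries were made with a directional kit per the labels' protocols, and FastQC, TopHat and edgeR were used by the authors per the submitters' processing notes. Their versions, the build, the read counter and the test used are not given in the sources at hand. Per the file headers, the deposited values are a log2 fold change, a mean level in log2 CPM, a p-value and an adjusted p-value (FDR) per gene; base 2 was inferred from the column names. The depth is unknown, since no counts per library were used.

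The number of genes tested was recovered from p, rank and adjusted p, and Benjamini-Hochberg values over it matched 318 of 318 rows (relative tolerance 1e-06); this step was tested on simulated data. Group levels were computed from fold and mean level. The implied standard error is the log2 fold change over the normal quantile of the deposited p, chosen after the data were seen, and covers only the variance the authors' fit assumed. No test was added. Genes under an adjusted p of 0.05 are called. Genes named are the 3, rows of lists of pathway, family and marker genes, the 3 nearest rows with a name and the nearest IDs. The members and lists were chosen with earlier results of these data known. Alternatives were other thresholds, minimum fold and level, lists by ID only, and other readings of the mean level. Python 3.11.15 and pandas 2.3.3 were used.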

Additional observations from a re-analysis of the deposited data

How the results depend on the processing

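TT7 and the DFR-named gene were called at an adjusted p under 0.05 and under 0.01, and with a minimum absolute log2 fold change of 1 or a mean level, in log2 CPM, of at least 1, while CHS was called only at a threshold of 0.1. The flavonoid list thus had 2 genes called higher, 3 at a threshold of 0.1, and 1, TT7, when genes were taken by best hit ID only. With the groups weighted equally or the mean level read as a mean of log2 values, levels of CHS and TT7 moved by less than 1.5 times. Those of the DFR-named gene reached 25.3 CPM in the over-expressors and 0.101 CPM in wild type under the reading as log2 values, so its levels are rough. No paired analysis was possible, since the design of 2 over-expressing libraries and 1 wild-type library holds no pairs. The authors' deposited table holds no value per library, so no library could be left out in turn. Depth limits cannot be given.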
